A study of Rattus norvegicus with 12 samples.

Results

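The cluster of miR-144 and miR-451 is a pair of neighbouring miRNA genes, and its products were measured here in extracellular vesicles (EVs) that 4 kinds of rat cell released into culture medium. The members were all array probes for either arm of rat miR-144 or miR-451, and 4 of the 727 miRNA probes met this rule: rno-miR-451-5p, rno-miR-144-3p, rno-miR-451-3p and rno-miR-144-5p. MiR-451-5p was bright on every array of Thy1-MC-EVs and MSC-EVs and lay at or under the detection limit on every array of SH-EVs and MH-EVs. MiR-144-3p followed the same division of the arrays close to the detection limit, and the other arm of each hairpin was detected on 0 of the 12 arrays.

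The study asked which EV cargo of transplanted Thy1-positive cells acts on hepatocytic progenitors of the rat liver. Each EV source had 3 arrays, and the miRNA was labelled with Cy3 and hybridised to 3D-Gene rat miRNA chips. Thy1-MC-EVs came from Thy1-positive mesenchymal cells of F344 rat livers injured with d-galactosamine. The labels call these samples liver stem cells, and the name Thy1-MC-EVs follows the article, in which the arrays belong to the mesenchymal cells. SH-EVs came from small hepatocytes, which are hepatocytic progenitors, and MH-EVs from mature hepatocytes, both of healthy adult rat livers. MSC-EVs came from bone marrow mesenchymal cells. All cells were kept for 2 days in DMEM without serum before the EVs were collected, Thy1 cells and MSCs on plastic by the labels, SHs on hyaluronic acid and MHs on type I collagen. For Thy1-positive cells the article instead describes dishes coated with rat tail collagen. It names no coating for the dishes of the separated mesenchymal cells. Cell type, culture surface and, for the Thy1-MCs, liver injury therefore cannot be told apart. No source says whether replicates were separate cultures or animals. The p-values hence refer only to the spread among these arrays, which may be technical.

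MiR-144 and miR-451 are transcribed together, and in mouse and zebrafish the transcription factor GATA1 switches the cluster on as red cells mature. MiR-451 is known as an abundant miRNA of red cells and their precursors, where it represses Ywhaz and protects the cells from oxidative stress. Its precursor is unusual among vertebrate miRNAs because Ago2 cuts it in place of Dicer, and only the 5p strand is made in quantity. MiR-144-3p represses Nfe2l2, the regulator of antioxidant genes, in human erythroid cells.

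The mature sequences are shown because they set apart the 2 arms that were detected from the 2 that were not. They were taken from RefSeq, build GRCr8, and the capitals mark the seed, bases 2 to 8 from the 5′ end.
miR-451-5p: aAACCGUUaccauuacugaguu
miR-144-3p: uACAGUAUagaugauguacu
miR-451-3p: aUGGUAAUgguucucuugcugcu
miR-144-5p: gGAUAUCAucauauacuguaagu
No 2 of the 4 shared a seed. Among the 693 mature rat sequences in the table, no other had the same bases 2 to 8 as any of them.

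Both hairpins lie on the plus strand of chromosome 10 in GRCr8, Mir144 at chr10:63459397-63459479 and Mir451a at chr10:63459569-63459640. The hairpins are 83 and 72 bases long with 89 bases between them, so that the cluster spans 244 bases. It lies between protein-coding genes and overlaps none. Flot2 ends 13586 bases before it and Eral1 begins 134 bases after it. The hairpins are printed with the mature arms in capitals to show their different layout.
Mir144: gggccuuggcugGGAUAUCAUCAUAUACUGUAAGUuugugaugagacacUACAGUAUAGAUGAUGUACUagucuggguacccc
Mir451a: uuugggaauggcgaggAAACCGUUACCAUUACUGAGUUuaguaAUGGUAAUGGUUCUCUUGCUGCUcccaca
In Mir144 the arms occupy bases 13 to 35 and 50 to 69, on either side of the loop. In Mir451a the 5p product runs from base 17 to 38, reaching into the loop, and the annotated 3p arm from base 44 to 66.

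On the 12 arrays a probe counted as detected when its raw intensity, in arbitrary units, lay more than 2 SD above the blank spots of its array. Between 174 and 359 probes were detected on the arrays of Thy1-MC-EVs and MSC-EVs, 271 to 330 on those of SH-EVs and 425 to 528 on those of MH-EVs, and 150 probes on all 12. Control spots were dimmer on the MH-EV arrays: their first spike-in control read 5140 to 7920 against 28700 to 32900 on the other 9 arrays, and their background 59.8 to 77.9 against 96.8 to 135.9. The hepatocyte miRNAs (miR-122-5p, miR-122-3p, miR-192-5p and miR-194-5p) summed to 22200 to 25900 in MH-EVs (linear normalized intensities). Their sums were 742 to 2370 in Thy1-MC-EVs, 697 to 1150 in SH-EVs and 490 to 737 in MSC-EVs. The mesenchymal list (miR-199a-5p, miR-199a-3p, miR-214-3p, miR-143-3p and miR-145-5p) summed to 2230 to 5290 in Thy1-MC-EVs and MSC-EVs and to 891 to 1380 in the hepatocytic EVs. In Thy1-MC-EVs and MSC-EVs its largest mean was that of miR-145-5p (10.49 and 10.51 on the log2 scale). In SH-EVs and MH-EVs miR-145-5p had means of 7.82 and 8.60. Scaled to the spike-in controls, it was instead lower than in MH-EVs (log2 differences -1.05 and -2.02). MiR-214-3p differed in no pair of sources by the test used below. In bulk EV RNA, fewer vesicles carrying an miRNA and less of it per vesicle cannot be told apart.

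MiR-451-5p had raw intensities of 1964.9, 1991.4 and 2416.2 in Thy1-MC-EV replicates 1 to 3. In MSC-EV replicates 1 to 3 the raw intensities of miR-451-5p were 1785.1, 3798.4 and 1519.7. The raw ranges of these groups overlapped, and MSC-EV replicate 2 was the brightest array of all. In SH-EVs the raw intensities were 122.2, 118.3 and 107.2, under the detection limit of all 3 arrays. In MH-EVs they were 74.1, 64.7 and 80.3. Only MH-EV replicate 2 counted as detected, and there the raw value and the limit were both 64.7. Thus every array of Thy1-MC-EVs and MSC-EVs lay far above every array of SH-EVs and MH-EVs, with no overlap. Measured against the 95th percentile of the array's spots without a probe, a stricter limit, miR-451-5p was detected on 6 arrays, the 3 of Thy1-MC-EVs and the 3 of MSC-EVs.

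MiR-144-3p had raw intensities of 129.8, 159.6 and 159.9 in Thy1-MC-EVs. In MSC-EVs the raw intensities of miR-144-3p were 155.4, 208.0 and 132.5. All 6 values counted as detected, but they were only 1.03 to 1.35 times the detection limit of their arrays. In SH-EVs the values were 123.2, 108.1 and 96.6, and in MH-EVs 69.8, 56.7 and 75.3, none of them detected. The limit differed between arrays: SH-EV replicate 1 at 123.2 was under a limit of 137, whereas Thy1-MC-EV replicate 1 at 129.8 was above one of 109.2. Against the spots without a probe, miR-144-3p was detected on 2 arrays, 1 of Thy1-MC-EVs and 1 of MSC-EVs, so its presence on the other 4 rests on the choice of limit. Of the spots without a probe, 44.4% to 76.7% lay above the limit that was used.

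**Figure D1:**
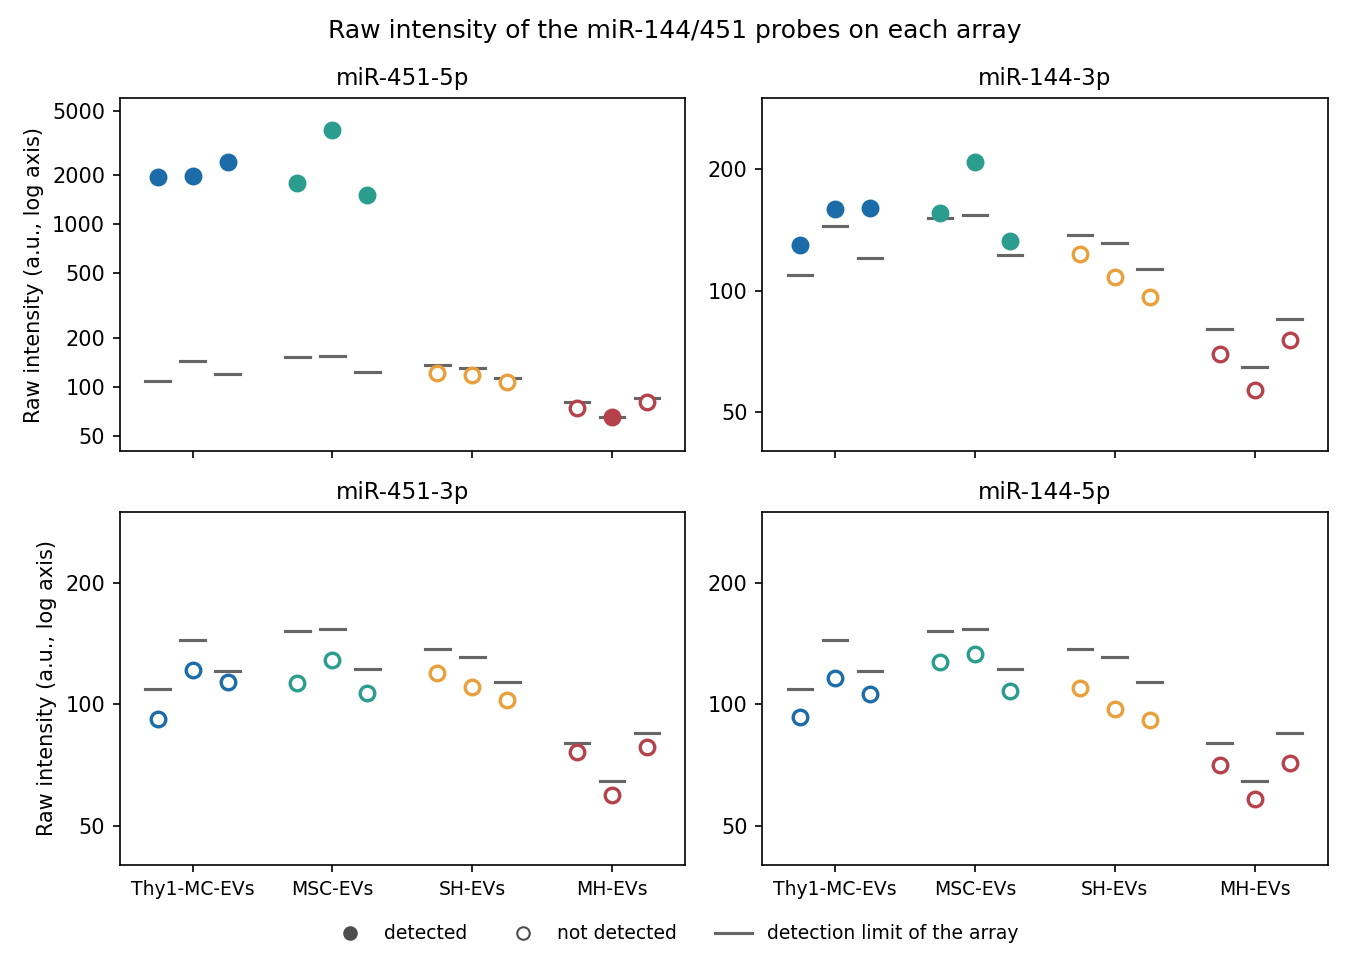
Raw intensity (arbitrary units, log axis) of the 4 probes of the cluster on each of the 12 arrays, replicates 1 to 3 from left to right in each EV source, with the array's detection limit as a grey bar. Filled points were detected. MiR-451-5p lay between 1519.7 and 3798.4 in Thy1-MC-EVs and MSC-EVs and between 64.7 and 122.2 in SH-EVs and MH-EVs, miR-144-3p was at most 1.35 times its limit, and the other arms were detected on no array.

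MiR-451-3p and miR-144-5p, the other arm of each hairpin, gave no signal that could be compared. Minus the array's background, their raw intensities ranged from -19.1 to 4.5 and from -17.1 to -1.6 over the 12 arrays. They were 0.74 to 0.95 and 0.74 to 0.90 times the detection limit and were not tested. Intensities of different probes were not set against each other, because probes differ in how brightly they report the same amount.

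For the comparison of EV sources the raw intensities were background-corrected, quantile-normalized and taken to the log2 scale. The normalized log2 intensity of miR-451-5p was 11.43, 10.90 and 10.45 in Thy1-MC-EVs (mean 10.93 ± 0.49, SD, n = 3) and 12.17, 11.89 and 11.89 in MSC-EVs (mean 11.99 ± 0.16). In SH-EVs it was 6.02, 6.12 and 6.13 (mean 6.09 ± 0.06) and in MH-EVs 5.83, 6.10 and 6.02 (mean 5.98 ± 0.14). The order of the means was MSC-EVs, Thy1-MC-EVs, SH-EVs and MH-EVs, of which SH-EVs and MH-EVs did not differ beyond their spread. Within Thy1-MC-EVs, replicate 3 was the brightest array before normalization and the lowest after it. That array also had the most detected probes of its group, 359 against 228 and 272.

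The normalized log2 intensity of miR-144-3p was 7.13, 6.64 and 6.70 in Thy1-MC-EVs (mean 6.82 ± 0.26) and 7.14, 7.08 and 6.88 in MSC-EVs (mean 7.03 ± 0.14). It was 6.05, 5.94 and 5.87 in SH-EVs (mean 5.95 ± 0.09) and 5.72, 5.81 and 5.89 in MH-EVs (mean 5.81 ± 0.08). As for miR-451-5p, Thy1-MC-EVs and MSC-EVs lay above the others, but the ranges of miR-144-3p overlapped between Thy1-MC-EVs and MSC-EVs and between SH-EVs and MH-EVs.

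Both arms were then compared between each pair of sources in a limma model over the 387 probes that were detected on every array of at least 1 source. Of the 4 members 2 were in this set. MiR-451-5p and miR-144-3p entered it through Thy1-MC-EVs and MSC-EVs, where they were brighter. MiR-451-5p is also one of the miRNAs that the study picked on these arrays for its excess in Thy1-MC-EVs. The calls of both arms are therefore not independent evidence of the direction. The article also measured miR-451 by quantitative RT-PCR and reports relatively more of it in Thy1-MC-EVs than in EVs of SHs or MHs. Of the mimics it tried on cultured SHs, among them miR-451, it reports significantly more growth with those of miR-125b and miR-199a. In Thy1-MC-EVs miR-451-5p exceeded its SH-EV level by 4.84 as a log2 difference (95% confidence interval 4.38 to 5.30, adjusted p = 5.43e-08). As no SH-EV array detected it, its fold was bounded against the lowest detected level of those arrays on the quantile-normalized scale. This gave at least 24.3-fold. Of all tested probes in this pair, 6.98% were called higher and 7.49% lower. Against MH-EVs, where it was detected on 1 of 3 arrays, miR-451-5p was higher by 4.95 (4.49 to 5.40, adjusted p = 4.3e-08), or at least 28.9-fold by the same bound, where 14.5% of the probes were called higher and 15.5% lower.

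In MSC-EVs miR-451-5p exceeded SH-EVs by 5.90 (5.44 to 6.35, limma adjusted p = 6.65e-09), or at least 50.4-fold, and MH-EVs by 6 (5.54 to 6.46, adjusted p = 5.49e-09), or at least 60.2-fold. The shares of all probes called in these pairs were 12.1% higher and 15.5% lower than in SH-EVs, and 14.7% higher and 20.7% lower than in MH-EVs. As log2 differences the bounds were 4.6 and 4.86 for Thy1-MC-EVs against SH-EVs and MH-EVs, and 5.66 and 5.91 for MSC-EVs. The largest fitted differences of any other tested probe in these comparisons were 2.67, 2.66, 4.72 and 4.35, some of which may themselves have an undetected side. The fitted size depended on how the dim side was treated and on the scaling. With plain background subtraction the differences from SH-EVs became 9.66 for Thy1-MC-EVs and 10.75 for MSC-EVs, and without any background correction 3.73 and 4.74. Scaled to the spike-in controls, the differences from MH-EVs were 3.01 for Thy1-MC-EVs and 2.94 for MSC-EVs, under the bounds above. The folds given as at least hence hold only under the background correction and scaling used here, including those given next for miR-144-3p.

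In Thy1-MC-EVs miR-144-3p exceeded its SH-EV level by a log2 difference of 0.87 (limma adjusted p = 0.00236), which is at least 1.41-fold, and its MH-EV level by 1.02 (adjusted p = 0.000425), at least 1.68-fold. MSC-EVs exceeded SH-EVs by 1.08 (adjusted p = 0.000186, at least 1.63-fold) and MH-EVs by 1.23 (adjusted p = 7.03e-05, at least 1.94-fold). The excess over SH-EVs was called less steadily. Under scaling to the array median it was 0.95 for Thy1-MC-EVs with an adjusted p of 0.142, and scaled to the spike-in controls miR-144-3p was lower, not higher, than in MH-EVs, by -1.11 in Thy1-MC-EVs and -1.23 in MSC-EVs. The spike-in scale moved the median of all tested probes by -2.24 and -2.64 in those 2 comparisons, because the control spots were dimmer on the MH-EV arrays. MiR-144-3p was detected on none of the MH-EV arrays.

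**Figure D2:**
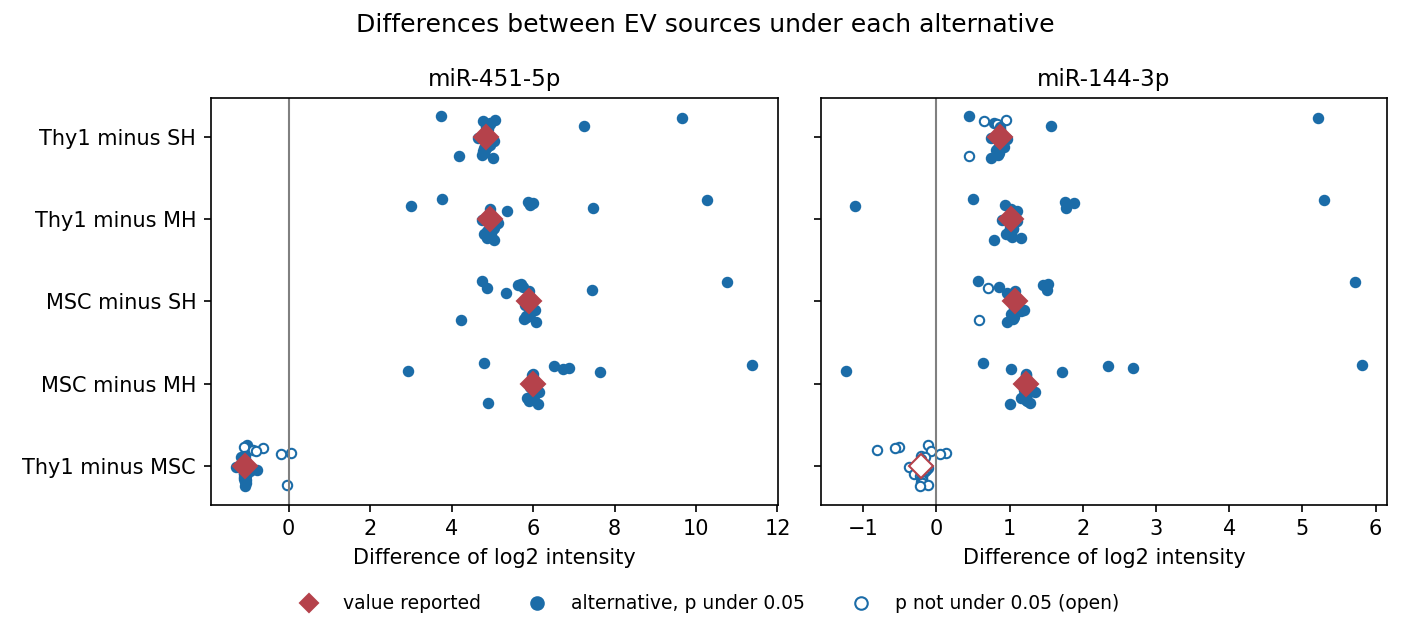
Difference of log2 intensity (x axis) of miR-451-5p and miR-144-3p between EV sources, with the reported value as a diamond and each alternative processing as a circle, filled where the adjusted p (unadjusted for 1 alternative, the methods' t-test as such) was under 0.05. MiR-451-5p stayed at 2.94 or more in all 4 comparisons of mesenchymal with hepatocytic EVs, while miR-144-3p fell under 0 in both comparisons with MH-EVs on the spike-in scale, and the differences between Thy1-MC-EVs and MSC-EVs lay near 0 under 3 of the scalings for miR-451-5p.

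The pairs within each class of source differed less. On the normalized scale miR-451-5p was lower in Thy1-MC-EVs than in MSC-EVs (log2 difference -1.06, SE 0.21, 95% confidence interval -1.51 to -0.60, limma adjusted p = 0.00454), and the normalized values did not overlap. Of all tested probes in that pair, 12.9% were called higher and 10.6% lower. This call depended on the scaling. The difference was -0.04 on raw intensities without scaling (adjusted p = 0.963), -0.19 on the authors' normalized intensities (adjusted p = 0.837) and 0.06 after scaling to the spike-in controls (adjusted p = 0.903). In the authors' own normalization miR-451-5p read 635.4, 409.7 and 697.5 in Thy1-MC-EVs and 549.3, 750.9 and 648.5 in MSC-EVs, with overlapping ranges. MiR-144-3p differed by -0.21 (-0.52 to 0.10, adjusted p = 0.322), an interval that includes no difference.

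Between SH-EVs and MH-EVs, neither arm was called. The difference was 0.11 for miR-451-5p (limma adjusted p = 0.745) and 0.15 for miR-144-3p (adjusted p = 0.492). On the spike-in scale both were lower in SH-EVs (difference -1.94 for each), and scaled to the 75th percentile both were higher (1.23 for each). Of all tested probes in this pair, 15% had calls for higher SH-EV and 17.6% for lower SH-EV levels. Both arms were at or under the detection limit in both sources, so these differences set background against background. Over all 4 sources at once, the F-test of the same model gave an adjusted p of 4.25e-09 for miR-451-5p, the smallest of the 387 probes, and 7.7e-05 for miR-144-3p, the 26th. It called 50.9% of the probes.

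The pattern of each arm over the 12 arrays was most like that of the other. Among the other 386 probes tested, miR-144-3p ranked first in likeness to miR-451-5p and miR-451-5p first in likeness to miR-144-3p (Pearson r = 0.979 over 12 arrays). The coefficient describes mainly the step between the 6 arrays of Thy1-MC-EVs and MSC-EVs and the 6 of SH-EVs and MH-EVs. Within the first 6 it was 0.79 and within the last 6, where almost all values were background, 0.5. The arrays share their normalization, and no test was made on these coefficients.

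**Figure D3:**
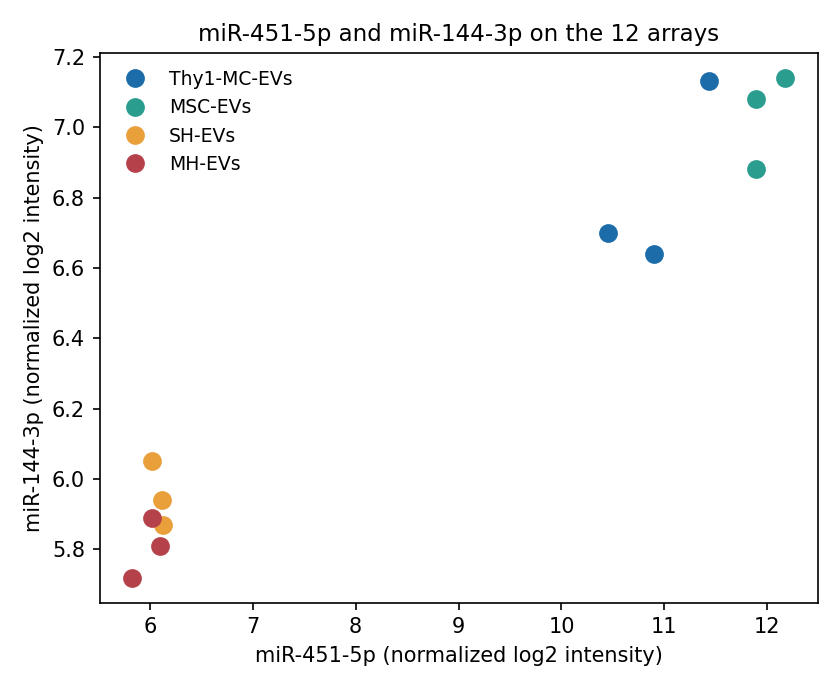
Normalized log2 intensity of miR-451-5p (x axis) and miR-144-3p (y axis), 1 point per array, coloured by EV source. The arrays of Thy1-MC-EVs and MSC-EVs lie between 10.45 and 12.17 on the x axis and those of SH-EVs and MH-EVs between 5.83 and 6.13, with a gap on both axes between these sets.

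Next in likeness to miR-451-5p were miR-199a-3p (r = 0.886), miR-125b-5p (0.881), miR-145-5p (0.845) and miR-487b-3p (0.843). Next to miR-144-3p were miR-199a-3p (0.861), miR-500-3p (0.841), miR-487b-3p (0.836) and miR-199a-5p (0.834). MiR-199a-3p and miR-145-5p are known from stellate cells and smooth muscle, and miR-125b-5p is common in stromal cells. MiR-125b-5p had mean normalized log2 intensities of 10.68 in Thy1-MC-EVs and 10.48 in MSC-EVs, but also of 8.36 in SH-EVs and 9.24 in MH-EVs, and it was detected on all 12 arrays. MiR-199a-3p, not detected in SH-EVs, was 7.16 in Thy1-MC-EVs, 8.52 in MSC-EVs, 5.98 in SH-EVs and 6.22 in MH-EVs.

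Other miRNAs known to be abundant in red cells or to rise as red cells mature were called in both directions in most pairs of sources. Of 7 such miRNAs on the array, 6 were tested, and miR-363-3p was detected on 0 arrays. MiR-486, another red cell miRNA, was not analysed here. Relative to SH-EVs, 0 of the 6 rose and 2 fell in Thy1-MC-EVs, with a median difference of -0.24 on the log2 scale against 0.00 over all tested probes. Of all tested probes in this pair, 6.98% were called higher and 7.49% lower, so that 0 of 6 says little. Relative to MH-EVs, 1 rose and 1 fell (same source, median -0.37, all probes -0.05), where 14.5% of all probes were called higher and 15.5% lower. MSC-EVs had 2 higher and 2 lower against SH-EVs (median -0.32, all probes -0.09), and 2 higher and 1 lower against MH-EVs (median 0.07, all probes -0.13). The shares of all probes were 12.1% higher and 15.5% lower against SH-EVs, and 14.7% and 20.7% against MH-EVs. Thy1-MC-EVs had 1 higher and 2 lower when set against MSC-EVs, and SH-EVs had 2 higher and 3 lower when set against MH-EVs. The shares of all probes in these pairs were 12.9% higher and 10.6% lower, and 15% higher and 17.6% lower.

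MiR-16-5p, a general miRNA that is also plentiful in red cells, had raw intensities of 202.2 to 341.8 in Thy1-MC-EVs, 596.5 to 1587.6 in MSC-EVs, 168.7 to 342.8 in SH-EVs and 332.5 to 680.2 in MH-EVs. After normalization the 3 MSC-EV arrays stood above all others. MiR-16-5p was higher in MSC-EVs than in SH-EVs by 3.16 (limma adjusted p = 2.06e-06) and below its MSC-EV level in Thy1-MC-EVs (difference -2.77, adjusted p = 9.41e-06), while Thy1-MC-EVs and SH-EVs differed by 0.39 (SE 0.23, adjusted p = 0.272). MiR-15b-5p, of the same seed family as miR-16-5p, was likewise higher in MSC-EVs than in SH-EVs, by 1.84 (adjusted p = 0.00015), and the difference of Thy1-MC-EVs from SH-EVs was 0.57 (adjusted p = 0.134).

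The remaining red cell miRNAs had their highest means in SH-EVs or MH-EVs. MiR-25-3p and miR-92a-3p, related miRNAs of the miR-106b/25 and miR-17/92 clusters, were lower in Thy1-MC-EVs when compared with SH-EVs (differences -1.76, limma adjusted p = 0.000273, and -1.54, adjusted p = 0.0336). MiR-25-3p was also lower in MSC-EVs than in SH-EVs (difference -1.91, adjusted p = 5.17e-05). MiR-185-5p, which rises in maturing mouse erythroblasts, was lower in MSC-EVs than in SH-EVs (difference -1.78, adjusted p = 0.00129) and had its lowest mean in MH-EVs, 6.65 on the normalized log2 scale against 8.81 in SH-EVs. MiR-210-3p, a hypoxia-induced miRNA, was lower in MSC-EVs than in MH-EVs (difference -1.23, adjusted p = 0.00433), and its difference between Thy1-MC-EVs and SH-EVs was 0.45 (adjusted p = 0.279). Each of the differences called for miR-16-5p, miR-15b-5p, miR-25-3p, miR-92a-3p, miR-185-5p and miR-210-3p in this and the preceding paragraph kept its sign under 6 other scalings, though not always its call. Other called differences from MH-EVs did not all do so. Scaled to the spike-in controls, miR-185-5p turned to -0.92 in Thy1-MC-EVs, and miR-16-5p and miR-15b-5p to -1.46 and -2.49 in MSC-EVs.

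**Figure D4:**
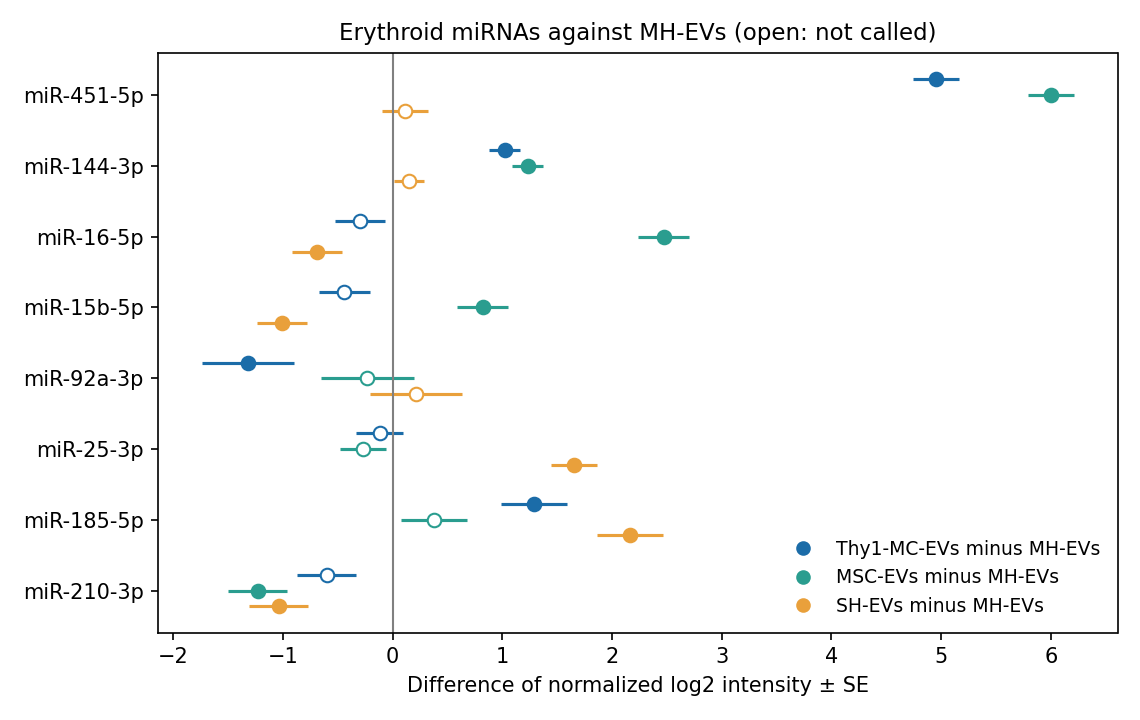
Difference of normalized log2 intensity ± SE from MH-EVs (x axis) for miR-451-5p, miR-144-3p and 6 other miRNAs of red cells, 1 point per EV source, filled where the limma adjusted p was under 0.05. MiR-451-5p stands at 4.95 in Thy1-MC-EVs and 6 in MSC-EVs, miR-144-3p at 1.02 and 1.23, and among the 6 other miRNAs a positive difference of Thy1-MC-EVs was called for miR-185-5p alone (1.29, but -0.92 on the spike-in scale).

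MiRNAs that hold back erythroid maturation or fall during it were taken as a further list, of which 6 were on the array and 5 were tested. Of these, Thy1-MC-EVs had 1 higher and 1 lower against SH-EVs, and 2 higher and 0 lower against MH-EVs. MSC-EVs had 3 higher and 0 lower against SH-EVs (median 1.36, all probes -0.09), and 4 higher and 0 lower against MH-EVs. Against MSC-EVs, Thy1-MC-EVs had 0 higher and 3 lower. SH-EVs had 1 higher and 1 lower against MH-EVs. Of all tested probes, 6.98% were called higher and 7.49% lower in Thy1-MC-EVs against SH-EVs, and 14.5% and 15.5% against MH-EVs. For MSC-EVs the shares were 12.1% and 15.5% against SH-EVs, and 14.7% and 20.7% against MH-EVs. Those of Thy1-MC-EVs against MSC-EVs were 12.9% and 10.6%, and those of SH-EVs against MH-EVs 15% and 17.6%. Scaled to the spike-in controls, the 4 of MSC-EVs against MH-EVs turned negative (miR-221-3p -0.09, miR-222-3p -1.05, miR-223-3p -2.12, miR-24-3p -1.83). So did the 2 of Thy1-MC-EVs against MH-EVs (miR-222-3p -1.6, miR-24-3p -1.47). MiR-221-3p and miR-222-3p, which repress Kit in human erythroid progenitors, were higher in MSC-EVs than in SH-EVs by 3.27 and 1.36 (limma adjusted p = 2.06e-06 and 2.65e-05). In Thy1-MC-EVs the same differences were 0.50 and 0.28 (adjusted p = 0.189 and 0.191). MiR-24-3p was lower in Thy1-MC-EVs compared with SH-EVs (difference -1.22, adjusted p = 0.0339), a call that none of 6 other scalings kept. MiR-23a-3p, to which miR-451-5p is usually referred in human plasma when red cell lysis is checked, had mean normalized log2 intensities of 12.51, 13.18, 13.66 and 10.91 in Thy1-MC-EVs, MSC-EVs, SH-EVs and MH-EVs. It differed from SH-EVs by -1.15 in Thy1-MC-EVs (adjusted p = 0.102) and by -0.48 in MSC-EVs (adjusted p = 0.458).

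Some leukocyte and endothelial miRNAs were also higher relative to SH-EVs. Relative to MH-EVs fewer of both kinds were called higher in Thy1-MC-EVs, while in MSC-EVs only the endothelial count was lower. Of 5 leukocyte miRNAs (miR-142-3p, miR-142-5p, miR-223-3p, miR-150-5p and miR-155-5p) 3 were tested, and 2 were higher in Thy1-MC-EVs and 2 in MSC-EVs than in SH-EVs, 0 lower, where 6.98% and 12.1% of all probes were called higher. Relative to MH-EVs the numbers were 1 and 2, with 0 lower, where 14.5% and 14.7% of all probes were called higher. These calls against MH-EVs turned negative with scaling to the spike-in controls (miR-142-5p -1.76 in Thy1-MC-EVs and -1.02 in MSC-EVs, miR-223-3p -2.12 in MSC-EVs). MiR-223-3p differed by -0.02 between Thy1-MC-EVs and MH-EVs (limma adjusted p = 0.954). MiR-142-5p was higher than in SH-EVs by 0.65 in Thy1-MC-EVs (limma adjusted p = 0.00119) and by 2.13 in MSC-EVs (adjusted p = 3.3e-08), and miR-223-3p by 0.74 (adjusted p = 0.0458) and 1.91 (adjusted p = 8.11e-05). The summed linear normalized intensity of the 5, in which a probe at background still counts, was 453 to 552 in Thy1-MC-EVs, 785 to 1030 in MSC-EVs, 359 to 395 in SH-EVs and 406 to 479 in MH-EVs. MiR-155-5p was detected on no array of Thy1-MC-EVs, MSC-EVs or MH-EVs, and miR-142-3p on none of MSC-EVs or SH-EVs. The endothelial and platelet miRNAs miR-126a-3p and miR-126a-5p summed to 205 to 277 in Thy1-MC-EVs, 258 to 299 in MSC-EVs, 134 to 143 in SH-EVs, where neither was detected, and 186 to 273 in MH-EVs. MiR-126a-3p was higher than in SH-EVs by 1.18 in Thy1-MC-EVs (adjusted p = 0.00249) and by 1.51 in MSC-EVs (adjusted p = 0.000186), but its difference between Thy1-MC-EVs and MH-EVs was 0.17 (adjusted p = 0.559), and it was detected on all 3 MH-EV arrays. Each of these differences from SH-EVs kept its sign under 6 other scalings, though with median scaling 0 leukocyte miRNAs were called between Thy1-MC-EVs and SH-EVs. The part of blood cells or other cells in the miR-451-5p result was not tested.

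Among the relatives of miR-144-3p by seed, miR-101b-3p was brightest in MH-EVs, where miR-144-3p was not detected. Of the 727 probe names 653 matched a RefSeq sequence, and among these miR-101a-3p and miR-101b-3p shared bases 2 to 7 with miR-144-3p and differed from it at base 8. MiR-101 is a liver-rich miRNA that represses Ezh2 in human cells. The sequences are printed with bases 2 to 8 in capitals so that the shared stretch can be seen beside that of miR-144-3p.
miR-144-3p: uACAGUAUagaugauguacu
miR-101a-3p: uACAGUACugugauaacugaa
miR-101b-3p: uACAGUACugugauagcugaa
Counted from the 5′ end, 8 and 9 of the first 20 bases were identical with miR-144-3p.

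MiR-101b-3p had raw intensities of 931.9, 898.8 and 465.9 in MH-EVs, 153.7 to 197.6 in SH-EVs, 100.5 to 155.0 in Thy1-MC-EVs and 110.6 to 158.7 in MSC-EVs. MH-EVs stood above all other arrays without overlap. Relative to MH-EVs, miR-101b-3p was lower in Thy1-MC-EVs (difference -2.14, limma adjusted p = 0.000239) and in MSC-EVs (difference -2.15, adjusted p = 0.000139), and both kept sign and call under 6 other scalings. MiR-101a-3p, detected on the 3 MH-EV arrays and on 1 array of MSC-EVs, differed by -0.62 between Thy1-MC-EVs and MH-EVs (adjusted p = 0.0131), though by 0.14 under scaling to the 75th percentile. MiR-1193-5p shared bases 2 to 7 with miR-451-3p, which was detected on none of the 12 arrays. MiR-1193-5p counted as detected on the 3 MH-EV arrays and on none of the other 9. Its raw MH-EV values, 81.2, 66.5 and 87.5, lay barely above the limits of 80.4, 64.7 and 84.9. They lay under the 95th percentile of the spots without a probe (92, 70.9 and 100.6). Its mean normalized log2 intensities were 6.01 in Thy1-MC-EVs, 6.1 in MSC-EVs, 6.12 in SH-EVs and 6.11 in MH-EVs. No pair of sources was called for it.

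**Figure D5:**
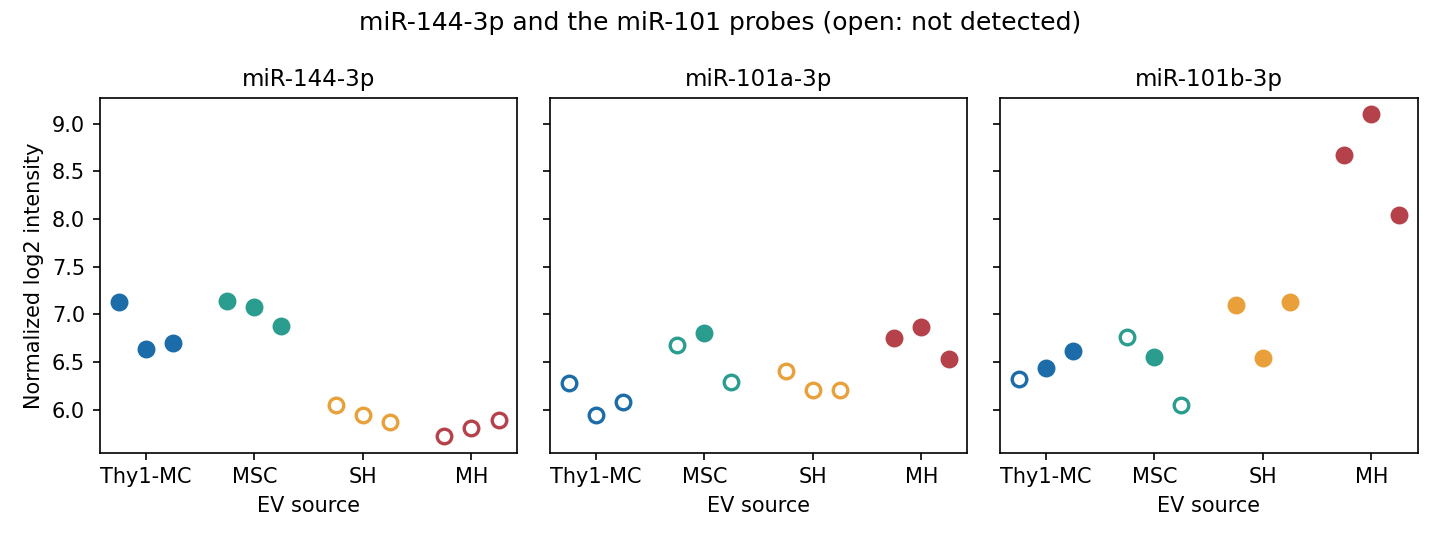
Normalized log2 intensity (y axis) of miR-144-3p and of the miR-101 probes with which it shares bases 2 to 7, on each array by EV source (x axis), replicates 1 to 3 from left to right, open where not detected. MiR-144-3p was detected only in Thy1-MC-EVs and MSC-EVs, and miR-101b-3p was highest in MH-EVs, at 8.04 to 9.10.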

How the data were processed

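For every array the authors deposited 3 intensity columns, all on a linear scale: raw, background-subtracted, and normalized so that detected probes had a median of 25. From the values, the background was a mean over 1504 blank spots, trimmed by 5% per end. Scanner and image software: not given in the sources used here.

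The deposited raw intensities were corrected by normexp (offset 50), then quantile-normalized, taken to log2 and fitted with lmFit and eBayes of limma 3.58.1 in R 4.3.3, with 1 mean per group over 12 arrays. The test covered the 387 of 727 probes that all arrays of some group detected, with p-values adjusted by the Benjamini-Hochberg method with a threshold of 0.05. All p-values are two-sided. An exact permutation test of 3 against 3 arrays cannot go below 0.1 and was not used. A bound was taken on the quantile-normalized scale, per array, against the higher of the lowest detected level and the probe's own.

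The members, the lists and the rule for named miRNAs (all members, the listed miRNAs, seed relatives and the 5 most alike probes) were chosen with earlier results of these data known. Alternatives covered the background correction, scaling, filter, test, detection limit and replicates left out. Raw intensities without scaling and a normexp estimated from the blank spots were added after seeing the data. Same-numbered arrays deviated together for Thy1-MC-EVs and MH-EVs in all 3 pairs (r = 0.31, 0.20 and 0.32). In none of the other 5 comparisons were all 3 coefficients over 0.1, though single ones were higher. For Thy1-MC-EVs and SH-EVs they were 0.48, -0.04 and 0.30. No source says what a replicate number stands for.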

Additional observations from a re-analysis of the deposited data

How the results depend on the processing

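Of 334 alternative values for the 2 tested arms in 6 comparisons, 309 kept direction and side of the threshold. All values of miR-451-5p in mesenchymal against hepatocytic EVs did, at 3.73 to 9.66 and 3.01 to 10.28 in Thy1-MC-EVs against SH-EVs and MH-EVs, and 4.23 to 10.75 and 2.94 to 11.37 in MSC-EVs. Leaving out any 1 replicate changed no call of either arm, and neither did the replicate block. With the replicate block the differences of Thy1-MC-EVs from MH-EVs were 4.95 for miR-451-5p (limma adjusted p = 6.33e-07) and 1.02 for miR-144-3p (adjusted p = 0.000658).

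For miR-451-5p in Thy1-MC-EVs against MSC-EVs the call was lost with plain subtraction (-1.09, adjusted p = 0.163), median scaling (-0.63, 0.276), 75th percentile scaling (-0.87, 0.219), cyclic loess (-0.81, 0.128), the authors' normalized intensities (-0.19, 0.837), the methods' t-test after Benjamini-Hochberg adjustment, an exact test being too coarse here (-1.06, 0.106), and raw intensities without scaling (-0.04, 0.963), and it reversed with spike-in scaling (0.06, 0.903). For miR-144-3p in the same pair the sign turned with spike-in scaling (0.13) and the authors' normalized intensities (0.05). MiR-144-3p against SH-EVs lost its call in Thy1-MC-EVs with median scaling (0.95, adjusted p = 0.142), 75th percentile scaling (0.65, 0.651), spike-in scaling (0.83, 0.0981), the methods' t-test after adjustment (0.87, 0.073) and raw intensities (0.45, 0.546), and in MSC-EVs with spike-in scaling (0.70, 0.0632) and raw intensities (0.58, 0.142). Against MH-EVs it reversed with spike-in scaling, to -1.11 and -1.23 (adjusted p = 0.000514 and 0.000203). Between SH-EVs and MH-EVs, where both arms were at background, calls appeared for miR-451-5p with 75th percentile scaling (1.23, adjusted p = 0.0294) and cyclic loess (0.98, 0.0259) and for miR-144-3p with 75th percentile scaling (1.23, 0.0367) and raw intensities (0.70, 0.0339), and both reversed with spike-in scaling (-1.94 each, 8.88e-05 and 5.9e-06). Detection of miR-144-3p fell from 6 arrays to 2 against spots without a probe. The cause was not tested.

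Probes called in all ranged from 10 to 121 (91 reported) for Thy1-MC-EVs against MSC-EVs, 5 to 135 (56) against SH-EVs and 62 to 364 (116) against MH-EVs. They ranged from 19 to 136 (107) for MSC-EVs against SH-EVs, 64 to 374 (137) against MH-EVs, and 69 to 360 (126) for SH-EVs against MH-EVs. With only probes detected on all 12 arrays neither arm has a value, and with only SH-EV and MH-EV arrays in the fit neither was tested. With median scaling the 6 tested red cell miRNAs had 1 call in place of 2 between Thy1-MC-EVs and SH-EVs and 2 in place of 5 between SH-EVs and MH-EVs, and the miRNAs that fall in erythroid maturation 0 in place of 2 and 1 in place of 2.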
